A study of Mus musculus with 8 samples.

Results

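Colgalt2, Dusp10, Acsl4, Wee1, Mir22hg and G530011O06Rik were the genes examined, 6 of the 17326 genes whose line of the count table held all 8 counts. They were chosen by measured values, the log2 fold change between genotypes and its p-value in an edgeR test over sorted glomerular endothelium and podocytes, in which each ranked close behind endomucin (Emcn) itself among genes with lower levels in Emcn-knockout mice. Their genotype differences are therefore what selected them, and are given here as a description without a test. All 6 passed the filter on low counts. Polyadenylated RNA, as the labels state, was measured in 8 libraries from flow-sorted mouse kidney cells, in 4 groups of 2. These were endothelium and podocytes from wild-type mice (EMCN+/+), and the same cell types from mice homozygous for loss of the gene (EMCN-/-). The labels name no other allele, treatment or agent, and strain, age, sex, the kind of Emcn allele, and whether each library came from 1 animal or several are not given in the sources used here. The p-values below therefore measure the spread between these libraries, which may be technical.

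Endomucin is a sialomucin of the endothelial surface, and podocytes are the epithelial cells that wrap the glomerular capillaries on the far side of a shared basement membrane. The 6 genes belong to unrelated processes. Colgalt2 adds galactose to hydroxylysine in collagens within the endoplasmic reticulum, Dusp10 (also called MKP-5) removes phosphate from the stress kinases JNK and p38, and Acsl4 joins arachidonic acid and other polyunsaturated fatty acids to coenzyme A, which feeds them into membrane phospholipids. Wee1 is a kinase that puts an inhibitory phosphate on the cyclin-dependent kinase CDK1 and so delays entry into mitosis. Mir22hg is the noncoding transcript from which the microRNA miR-22 is processed, and G530011O06Rik is a long noncoding RNA.

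Libraries held between 10478956 and 17386042 counts on complete gene lines, and the correlation of log2 levels across genes between replicates of a group lay between 0.950 and 0.964. Levels are given as CPM, counts relative to a library size that was adjusted for composition with edgeR's TMM factors. Replicate 3 of wild-type endothelium had the highest mitochondrial share of counts (26.2%, against 10.1% to 22.2% in the other 7 libraries) and the highest summed level of 6 tubule markers, although wild-type podocyte replicate 3 and knockout podocyte replicate 2 had a higher mean log2 level of these markers (9.07 and 8.995 against 8.76). In every group replicate 3 exceeded replicate 2 in summed tubule level and in mitochondrial share. The shares were 26.2% against 13.3% in wild-type and 19.6% against 10.1% in knockout endothelium. In podocytes they were 16.9% against 12.2% in wild type and 22.2% against 12.9% in knockout. In wild-type endothelium the Emcn level was 1900.2 ± 102 CPM (SD, n = 2), against 176 ± 3.93 CPM (SD, n = 2) with the gene knocked out. In podocytes the levels were 55.0 ± 27.0 CPM (SD, n = 2) and 5.27 ± 0.46 CPM (SD, n = 2), in the direction of the labels. Which part of the gene the allele removes is not given in the sources used here. Of the markers on complete lines, all 12 endothelial genes were higher in endothelium and all 9 podocyte genes were higher in podocytes at an edgeR adjusted p under 0.05.

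Over both cell types, G530011O06Rik had the largest mean genotype difference of the 6, at −1.83 log2 units (SE 0.29), followed by Dusp10 at −1.14 (SE 0.22). Wee1, Colgalt2, Mir22hg and Acsl4 lay close together at −0.79 (SE 0.17), −0.77 (SE 0.16), −0.73 (SE 0.16) and −0.72 (SE 0.16). In the order by p-value they took places 2, 4, 6, 7, 8 and 9 among 8072 genes with a lower mean in knockout, after Emcn at place 1. Bmp7 at place 3 and Adm at place 5 lie between them and are not among the 6. Acsl4 was the gene just inside the range, with an edgeR p of 0.00101 used only to rank it, and Cxcl13 (log2 difference −1.30, p 0.00125 from the same edgeR fit), Paxx (−0.65) and Dnaja4 (−0.93) were the next 3 outside it. None of the 6 passed the adjusted threshold of 0.05, with edgeR adjusted p-values of 0.471 for G530011O06Rik and 0.558 for the other members. Emcn was the 1 gene of 16477 that did (0.00607%). For all 6 genes the knockout libraries were under the wild-type ones without overlap, in endothelium as well as in podocytes, which comes from the contrast that chose the genes and is no evidence about them. Among all genes tested, 6.04% had such a separation in both cell types and 5.74% had its opposite, while 19.7% were separated downward in endothelium and 16.0% in podocytes.

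**Figure D1:**
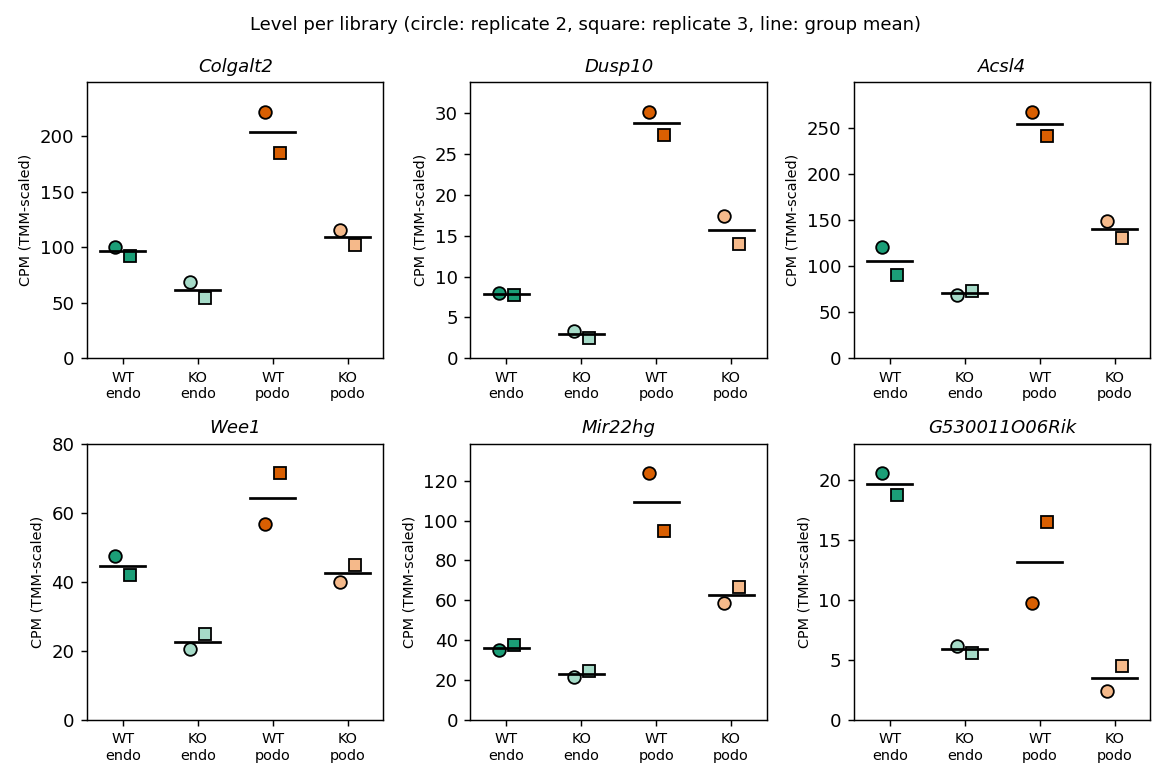
Level of each of the 6 genes (CPM, linear axis from 0) in the 8 libraries, with circles for replicate 2, squares for replicate 3 and a line for the mean of the 2. In each panel both knockout points sit under both wild-type points of the same cell type, and for 5 of the 6 genes the podocyte means are above the endothelial means of the same genotype.

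Colgalt2 (Entrez 269132, chr1:152399805-152510695 in GRCm38.p6) was at 100.1 and 92.4 CPM in the wild-type endothelium libraries (replicates 2 and 3) and at 68.8 and 54.0 CPM in the knockout ones. In podocytes it was at 222 and 185 CPM in wild type and at 116 and 102 CPM in knockout. The knockout podocyte libraries were thus only slightly above the wild-type endothelium libraries, while the genotypes did not overlap within either cell type. The fitted log2 difference was −0.65 (SE 0.22) in endothelium and −0.90 (SE 0.22) in podocytes, which left 63.8% and 53.6% of the wild-type level. Scaling by library totals only, which moved the median of all genes in endothelium from 0.01 to 0.33, gave −0.32 there.

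Dusp10 (Entrez 63953, chr1:184034381-184075636) had the lowest endothelial level of the 6 genes per kilobase of exon, at 2.58 CPM per kilobase in wild type and 0.97 in knockout. The libraries held 105 and 107 counts with Emcn present and 48 and 29 counts without it, or 7.98 and 7.74 CPM against 3.38 and 2.49 CPM. Podocyte libraries had 30.1 and 27.4 CPM in wild type and 17.5 and 14.0 CPM in knockout. The wild-type replicates were close together in both cell types, and each knockout library was well below them. The log2 differences were −1.41 (SE 0.33) in endothelium and −0.87 (SE 0.30) in podocytes, leaving 37.6% and 54.8% of the wild-type level.

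Acsl4 (Entrez 50790, chrX:142317993-142390802) was at 121 and 90.3 CPM in wild-type and 68.3 and 73.5 CPM in knockout endothelium. In podocytes it was at 267 and 241 CPM in wild type and 149 and 131 CPM in knockout. The endothelial groups came closest to each other here, since the wild-type replicates differed by 0.42 log2 units and the genotype difference was −0.57 (SE 0.22). Without replicate 2 of wild-type endothelium that difference was −0.36, and without replicate 3 it was −0.78. It was −0.28 with scaling by library totals only. In podocytes the difference was −0.86 (SE 0.22), with 55.0% of the wild-type level left.

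Wee1 (Entrez 22390, chr7:110122059-110143299) was at 47.3 and 41.8 CPM in wild-type and 20.6 and 24.8 CPM in knockout endothelium. Podocytes had 56.8 and 71.4 CPM in wild type and 39.9 and 44.9 CPM in knockout. The knockout podocyte libraries overlapped the wild-type endothelium libraries, and within each cell type the genotypes did not overlap. The log2 differences were −0.98 (SE 0.24) in endothelium and −0.60 (SE 0.23) in podocytes, or 50.9% and 66.1% of the wild-type level.

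Mir22hg (Entrez 100042498, chr11:75461539-75466690) was at 35.2 and 37.3 CPM in wild-type and 21.6 and 24.3 CPM in knockout endothelium, and at 124 and 94.7 CPM in wild-type and 58.8 and 66.8 CPM in knockout podocytes. Its endothelial replicates agreed within 0.17 log2 units, and the wild-type podocyte replicates were 0.38 apart. The log2 differences were −0.66 (SE 0.23) and −0.80 (SE 0.22), with 63.4% and 57.5% of the wild-type level left. The endothelial value was −0.33 with scaling by library totals only. The podocyte value was −0.57 without replicate 2 of the wild type and −0.98 without replicate 3.

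The miR-22 hairpin lies within an exon of both annotated Mir22hg transcripts (chr11:75463716-75463810, plus strand). Its mature arms from RefSeq are shown because the host transcript is what was counted here. Seeds, bases 2 to 8, are in capitals:
mmu-miR-22-5p: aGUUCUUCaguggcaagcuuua
mmu-miR-22-3p: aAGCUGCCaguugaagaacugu
No other mature mouse microRNA in the RefSeq table shares either seed (0 for each arm). Libraries of polyadenylated RNA do not measure mature microRNAs, so the levels above are those of the host transcript only.

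G530011O06Rik (Entrez 654820, chrX:169975043-169978917) was at 20.6 and 18.7 CPM in wild-type and 6.20 and 5.59 CPM in knockout endothelium. In podocytes it was at 9.79 and 16.6 CPM in wild type and 2.42 and 4.50 CPM in knockout, from 39 and 61 counts in the knockout libraries. Replicate 3 was higher than replicate 2 in both podocyte groups, by 0.75 and 0.85 log2 units, and the genotypes still did not overlap. The log2 differences were −1.74 (SE 0.41) in endothelium and −1.93 (SE 0.42) in podocytes, so 30.0% and 26.2% of the wild-type level was left, the lowest shares among the 6 genes. In podocytes the value ran from −2.44 without knockout replicate 3 to −1.51 without wild-type replicate 3.

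RefSeq places starts of G530011O06Rik on both the X and the Y chromosome. The 250 bases upstream of each start are shown because they are nearly the same, and how reads shared by such copies were counted is not given in the sources used here, which leaves the level of this gene uncertain. Both are from GRCm38.p6 on the minus strand, and capitals mark a CCAAT box:
X copy, chrX:169978918-169979167: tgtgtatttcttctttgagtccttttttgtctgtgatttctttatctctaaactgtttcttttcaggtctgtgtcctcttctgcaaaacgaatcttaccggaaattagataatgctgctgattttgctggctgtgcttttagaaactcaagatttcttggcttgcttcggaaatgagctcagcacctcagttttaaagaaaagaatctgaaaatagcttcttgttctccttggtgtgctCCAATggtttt
Y copy, chrY:90755051-90755300: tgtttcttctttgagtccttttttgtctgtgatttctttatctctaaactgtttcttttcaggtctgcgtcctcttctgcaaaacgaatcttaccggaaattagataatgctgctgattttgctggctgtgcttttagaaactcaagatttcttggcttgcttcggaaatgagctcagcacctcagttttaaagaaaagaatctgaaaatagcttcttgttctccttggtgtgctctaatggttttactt
Aligned to each other, 243 of 246 paired bases were identical (98.8%). The X-inactivation transcript Xist was present in each of the 8 libraries, at 86.9 to 146 CPM, and the genotypes overlapped, with 86.9 and 128 CPM in wild-type against 91.7 and 97.6 CPM in knockout endothelium and 93.2 and 89.1 CPM in wild-type against 90.1 and 146 CPM in knockout podocytes. The Y-linked genes Ddx3y, Kdm5d, Uty and Eif2s3y were not analysed here. Mid1, a ubiquitin ligase gene that overlaps G530011O06Rik on the opposite strand, was at 8.74 and 6.88 CPM in wild-type and 7.97 and 5.59 CPM in knockout endothelium, and at 7.26 and 7.11 CPM against 7.02 and 6.05 CPM in podocytes. Its log2 differences were −0.20 (SE 0.39) and −0.14 (SE 0.38), smaller than their errors.

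Other members also share their position with another annotated gene. In GENCODE M21, Dusp10 overlaps 1700056E22Rik and Wee1 overlaps 1600010M07Rik, both on the opposite strand, Mir22hg overlaps Tlcd2 on the same strand, and Colgalt2 holds the pseudogene Gm15618 on the opposite strand. The RefSeq spans give no overlap for Dusp10 and Wee1 and none of Mir22hg with Tlcd2. The use of strand in counting is not given in the sources used here, so reads from overlaps could have gone to either gene. Tlcd2 had log2 differences of 0.64 (SE 0.31) in endothelium and −0.12 (SE 0.30) in podocytes, and 1600010M07Rik of 0.65 (SE 0.65) and 0.88 (SE 0.67). 1700056E22Rik held at most 17 counts in a library.

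The RefSeq table also holds a start for Dusp10, Acsl4 and Mir22hg, and their 250 upstream bases (GRCm38.p6) are shown because these genes had lower knockout levels in both cell types. Capitals mark matches, on either strand, to the CCAAT box (CCAAT), the GC box (GGGCGG) and the half-site of the cyclic AMP response element (TGACGT):
Dusp10, chr1:184034131-184034380, plus strand: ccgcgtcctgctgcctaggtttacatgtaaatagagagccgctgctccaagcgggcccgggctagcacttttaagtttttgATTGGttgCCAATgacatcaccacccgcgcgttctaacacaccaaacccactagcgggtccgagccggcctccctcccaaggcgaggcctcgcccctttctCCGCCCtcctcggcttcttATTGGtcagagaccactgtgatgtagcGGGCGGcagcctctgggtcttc
Acsl4, chrX:142390536-142390785, minus strand: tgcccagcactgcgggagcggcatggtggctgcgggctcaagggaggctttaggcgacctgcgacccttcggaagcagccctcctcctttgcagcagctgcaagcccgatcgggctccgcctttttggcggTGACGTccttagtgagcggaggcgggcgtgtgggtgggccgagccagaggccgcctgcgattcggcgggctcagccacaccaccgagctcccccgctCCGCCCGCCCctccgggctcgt
Mir22hg, chr11:75461289-75461538, plus strand: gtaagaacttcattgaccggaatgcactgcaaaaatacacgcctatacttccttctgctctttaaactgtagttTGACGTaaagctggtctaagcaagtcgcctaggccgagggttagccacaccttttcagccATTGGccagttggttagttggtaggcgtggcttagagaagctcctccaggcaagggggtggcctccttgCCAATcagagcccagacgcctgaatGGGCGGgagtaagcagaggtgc
All 3 windows held a GC box (2 that overlap each other in Acsl4), found in 32.7% of 32851 promoter windows of this length, and the G530011O06Rik windows on X and Y held none. Dusp10 had 3 CCAAT boxes and Mir22hg had 2, against 33.8% of windows with at least 1. Acsl4 and Mir22hg each had 1 TGACGT, present in 6.47% of windows, and Dusp10 and both G530011O06Rik windows had none. An AP-1 site (TGANTCA), a heat shock element unit (GAANNTTC), a TATA box (TATAAA) and an E-box (CACGTG) were searched as well, and none of these letters occurred in the 3 windows or in either G530011O06Rik window. The Acsl4 window lies upstream of the start in the promoter table and inside the wider RefSeq gene span given above. The Dusp10 window likewise lies inside the wider GENCODE M21 span of that gene (chr1:184013302-184075636). These matches describe the sequence only.

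How the 6 genes differ between endothelium and podocytes was not used in choosing them, and was tested over both genotypes. Ranking by p-value favours genes with a small spread between replicates, and the same spread enters this test. The number of the 6 called is therefore not free of the choice. Colgalt2, Dusp10, Acsl4, Wee1 and Mir22hg were all higher in podocytes, by 1.94-fold, 4.41-fold, 2.18-fold, 1.64-fold and 2.87-fold, where 11.1% of the 16477 genes tested were called higher in podocytes, 7.19% higher in endothelium and 18.3% in either direction. For Dusp10 the log2 difference, endothelium minus podocytes, was −2.14 (SE 0.23, edgeR adjusted p 7.92e-05). For Mir22hg it was −1.52 (SE 0.16, edgeR adjusted p 7.96e-05), for Acsl4 −1.12 (SE 0.16, edgeR adjusted p 0.000589) and for Colgalt2 −0.95 (SE 0.16, edgeR adjusted p 0.00159). All 4 podocyte libraries lay above all 4 endothelium libraries for these 4 genes, as for 12.3% of all genes, while 9.59% had the opposite separation.

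Wee1 differed by less, at −0.71 log2 units (SE 0.17, edgeR adjusted p 0.0124), and its knockout podocyte and wild-type endothelium libraries overlapped. Its adjusted p from edgeR or DESeq2 ranged from 0.00753 to 0.0899 over the alternatives. It was 0.0564 without replicate 2 of knockout endothelium, 0.0564 without replicate 3 of wild-type podocytes, and 0.0899 when libraries were scaled by their totals only. G530011O06Rik went the other way, with a higher mean in endothelium by 0.68 log2 units (SE 0.29), which did not pass (edgeR adjusted p 0.142, and an adjusted p from edgeR or DESeq2 between 0.0579 and 0.364 over the alternatives). The contrast called 3020 genes in all, 1184 toward endothelium and 1836 toward podocytes, and 1288 and 1059 when libraries were scaled by their totals only.

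**Figure D2:**
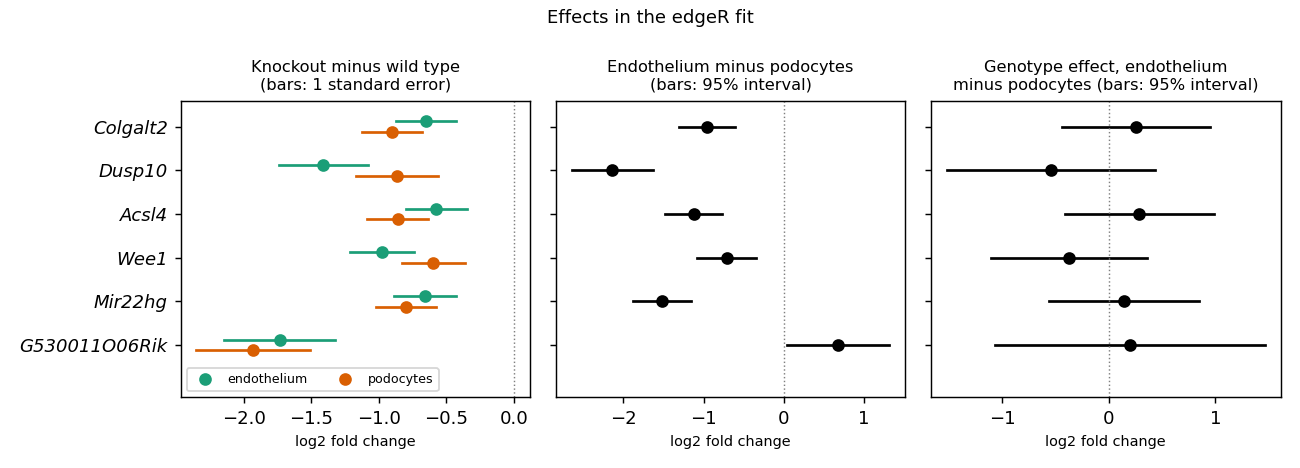
Log2 fold changes of the 6 genes from the edgeR fit over 8 libraries. The left panel gives knockout minus wild type in each cell type with 1 standard error, the middle panel endothelium minus podocytes, and the right panel the genotype difference in endothelium minus that in podocytes, both with 95% intervals. In the middle panel 5 genes lie left of 0 and G530011O06Rik lies right of it, and in the right panel all 6 intervals include 0.

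The size of the genotype difference was also compared between the cell types. This contrast was not used in choosing the genes, though the spread that entered the choice enters it too. None of the 6 passed, with an edgeR adjusted p of 1 for each. Dusp10 and Wee1 had the larger differences in endothelium, with interaction terms (endothelium minus podocytes) of −0.54 (95% interval −1.52 to 0.44) and −0.38 (−1.11 to 0.35) on the log2 scale. Acsl4, Colgalt2, G530011O06Rik and Mir22hg had terms of 0.29 (−0.41 to 0.99), 0.25 (−0.44 to 0.94), 0.20 (−1.07 to 1.46) and 0.14 (−0.56 to 0.85). These terms moved widely with 1 library left out. Acsl4 ran from 0.0863 without replicate 3 to 0.51 without replicate 2 of wild-type endothelium, and Colgalt2 from 0.0607 without replicate 2 to 0.41 without replicate 3 of knockout endothelium. Dusp10 ran from −0.79 to −0.35 without the same 2 libraries, and Wee1 from −0.56 without replicate 3 to −0.22 without replicate 2 of wild-type podocytes. Those of Mir22hg and G530011O06Rik changed sign, from −0.0618 to 0.315 and from −0.24 to 0.69. Each interval reaches at least 0.85 log2 units from 0 on its wider side, so equal effects in both cell types were not shown. In this contrast 0 of 16477 genes passed with edgeR (0%) and 0 with DESeq2, with 428 and 491 genes at an unadjusted p under 0.05.

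Relatives of Colgalt2 were examined next. Colgalt1, the other collagen galactosyltransferase, had a level per kilobase of exon of 13.4 ± 5.55 CPM in wild-type endothelium and 11.4 ± 7.67 CPM in knockout endothelium (SD, n = 2 each), with wide replicate spread. In podocytes its level per kilobase was 30.7 ± 2.38 CPM for wild type and 22.5 ± 3.56 CPM for knockout (SD, n = 2 each). Colgalt2 on the same scale was at 22.7 ± 1.29 and 14.5 ± 2.46 (SD, n = 2) in endothelium and at 47.9 ± 6.18 and 25.7 ± 2.22 (SD, n = 2) in podocytes, so its mean was above that of Colgalt1 in each group, by less than the replicate spread in knockout endothelium and knockout podocytes. The genotype log2 differences of Colgalt1 were −0.22 (SE 0.42) and −0.45 (SE 0.43). Of 11 tested genes that modify lysine and proline residues of collagen or help it fold, Colgalt2 included, 6 were called higher in podocytes and 1, Fkbp10, in endothelium (0.94 log2 units, edgeR adjusted p 0.0454). The Fkbp10 call was lost without any 1 of the 4 endothelium or 2 wild-type podocyte libraries (edgeR adjusted p 0.053 to 0.129). P3h1 and P3h2, which hydroxylate collagen prolines, were higher in podocytes, with log2 differences of −2.06 (edgeR adjusted p 2.77e-05) and −2.07 (edgeR adjusted p 0.000114). Fkbp14, a folding enzyme, followed at −1.31 (edgeR adjusted p 0.00147), and Colgalt1 at −1.09 (edgeR adjusted p 0.0304), which lost the call under 6 of 17 alternatives (adjusted p from edgeR or DESeq2 between 0.00157 and 0.148). Without replicate 3 of wild-type endothelium, replicate 2 or 3 of wild-type podocytes or replicate 2 of knockout podocytes, its edgeR adjusted p was 0.0982, 0.0988, 0.0632 and 0.0753. None of the 11 passed by genotype (0 in either cell type). Their median genotype difference was −0.22 in endothelium and −0.29 in podocytes, against 0.01 and 0.02 over all genes, and the endothelial median was 0.10 with scaling by library totals. The Plod and P4h enzymes and the collagen IV chains were not analysed here.

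Among the 10 phosphatases of MAP kinases, Dusp1, which is induced early in stress, was far more abundant than Dusp10, at 637 ± 37.1 CPM per kilobase in wild-type endothelium and 416 ± 79.9 CPM per kilobase in knockout endothelium (SD, n = 2 each), against 2.58 ± 0.05 and 0.97 ± 0.21 for Dusp10. Dusp1 had genotype log2 differences of −0.62 (SE 0.33) in endothelium and −0.20 (SE 0.33) in podocytes. Dusp16 and Dusp8, which like Dusp10 act on JNK and p38, had −0.22 and −0.39 in endothelium and −0.14 and 0.14 in podocytes. In endothelium 9 of the 10 had a negative difference, Dusp10 included, with a median of −0.72 (all genes 0.01), and in podocytes 5 of 10, with a median of 0.01, and none passed (0 in either cell type). Genes of very low level enter the endothelial median. Wild-type and knockout endothelium held 0.21 and 0.11 CPM per kilobase of Dusp2, 0.78 and 0.21 of Dusp5, and 1.07 and 0.38 of Dusp9. The more abundant Dusp6 was at 52.8 ± 0.79 and 48.8 ± 1.25 CPM per kilobase (SD, n = 2). With scaling by library totals 7 of 10 were negative in endothelium, with a median of −0.43. By cell type, Dusp5 and Dusp8 were called higher in podocytes beside Dusp10, and Dusp7 was called higher in endothelium by 2.04 log2 units (SE 0.34, edgeR adjusted p 0.00153). The Dusp5 call (−2.99, edgeR adjusted p 0.018) was lost with scaling by library totals and without replicate 3 of wild-type endothelium, replicate 2 of wild-type podocytes or replicate 2 of knockout podocytes (edgeR adjusted p 0.0503, 0.0552, 0.0692 and 0.0617), and its difference was −5.98 without replicate 2 of knockout endothelium. The Dusp8 call (−0.64, edgeR adjusted p 0.039) was lost under 13 of 17 alternatives, 7 of which left out a library (all but replicate 2 of knockout podocytes). Of 18 genes of the JNK and p38 pathway that lie upstream of or around these phosphatases, none passed by genotype (0 in either cell type). The p38 kinases Mapk12 and Mapk11 were higher in endothelium by 2.79 and 2.67 log2 units (edgeR adjusted p 1.84e-05 and 2.03e-05), and Map2k7, a kinase that activates JNK, was higher in podocytes (−1.09, edgeR adjusted p 0.00132).

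Acsl4 was the 1 member of its family of 5 that was called different between the cell types. Acsl1, at −0.72 (edgeR adjusted p 0.0546), was called as well under 5 of 17 alternatives. Per kilobase of exon, wild-type podocytes held 47.0 ± 3.46 CPM of Acsl4 and 50.4 ± 2.05 of Acsl5 (SD, n = 2), a difference within the replicate spread. Knockout podocytes held 25.9 ± 2.46 of Acsl4 and 47.2 ± 4.28 of Acsl5 (SD, n = 2), so Acsl4 lay below Acsl5 by more than the spread there. In endothelium Acsl5 was the highest of the family in both genotypes, at 54.5 ± 5.62 and 43.0 ± 5.46 CPM per kilobase (SD, n = 2), against 19.5 ± 4.01 and 13.1 ± 0.68 (SD, n = 2) for Acsl4. The genotype log2 differences of Acsl1, Acsl3 and Acsl5 were −0.61, −0.71 and −0.34 in endothelium and 0.14, −0.16 and −0.09 in podocytes, and those of Acsl6 were 0.13 (SE 0.54) and −0.02 (SE 0.52). Acsl6 had the lowest level of the family, with group means between 0.23 and 0.43 CPM per kilobase. None of the 5 passed by genotype (0 in either cell type). Of 13 genes of ferroptosis, an iron-dependent cell death by lipid peroxidation to which Acsl4 contributes, and of phospholipid remodelling, 3 were called higher in endothelium (Alox12 by 3.72, Ptgs2 by 1.55 and Sat1 by 1.09 log2 units, edgeR adjusted p 7.16e-06, 0.00146 and 0.00302). Acsl4 and Hmox1 were called higher in podocytes, the latter at −0.55 (edgeR adjusted p 0.0478) and not under 12 of 17 alternatives, 7 of which left out a library (all but replicate 3 of knockout endothelium). None passed by genotype (0 in either cell type), and the anti-ferroptotic enzyme Gpx4 had −0.45 and −0.05 in endothelium and podocytes.

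**Figure D3:**
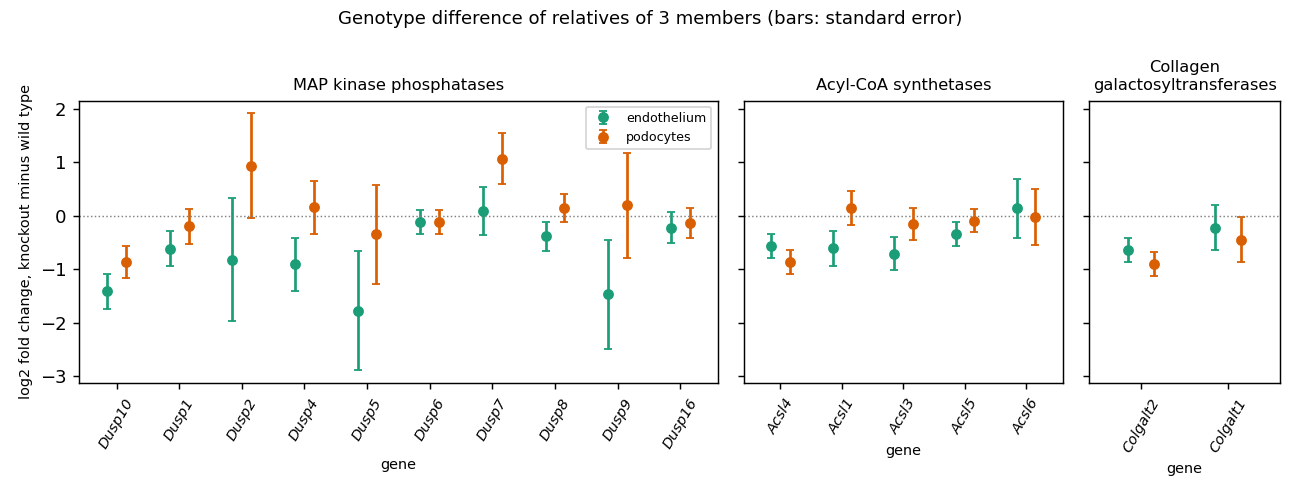
Knockout minus wild-type log2 fold change with 1 standard error, in endothelium and podocytes, for Dusp10, Acsl4 and Colgalt2 and their relatives. Dusp10, Acsl4 and Colgalt2 lie below 0 in both cell types, while Dusp2, Dusp4, Dusp7, Dusp8, Dusp9 and Acsl1 lie above 0 in podocytes.

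Wee1 was 1 of 4 listed genes that control CDK1 with a higher fitted level in podocytes, against 15 with a higher one in endothelium. Of these genes 9 were not called by cell type, and the direction of the list was not tested. Of 19 such genes tested, 8 were called higher in endothelium, among them Cdk1 itself (1.91 log2 units, edgeR adjusted p 0.00984) and the cyclins Ccnb1 (2.65, edgeR adjusted p 0.0159), Ccnb2 (2.16, edgeR adjusted p 0.0143) and Ccna2 (1.66, edgeR adjusted p 0.0413). Without replicate 2 of wild-type podocytes the calls of Ccna2, Ccnb1 and Ccnb2 were lost (edgeR adjusted p 0.132, 0.0736 and 0.0593). The Ccnb1 call was also lost in the additive model, and the Ccna2 call without replicate 2 of wild-type endothelium, either knockout endothelium library, replicate 3 of wild-type podocytes or replicate 2 of knockout podocytes (edgeR adjusted p 0.0694 to 0.145). Wee1 and Btrc, part of a ubiquitin ligase, were the 2 called higher in podocytes. Of the phosphatases that remove the phosphate Wee1 adds, Cdc25b was higher in endothelium by 1.15 log2 units (SE 0.25, edgeR adjusted p 0.00889), while Cdc25a (0.06) and Cdc25c (0.65) did not pass. None of the 19 passed by genotype (0 in either cell type), with medians of 0.17 in endothelium and 0.20 in podocytes and with Wee1 at −0.98 and −0.60. Cdc25a had −0.22 and −0.45, Cdc25b −0.10 and 0.21, and Cdc25c 0.95 and 0.66.

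For Mir22hg the comparison was with 8 other genes listed as microRNA hosts and with 8 proteins that process or use them. Besides Mir22hg, Egfl7, an endothelial gene that hosts miR-126, was called, higher in endothelium by 5.14 log2 units (edgeR adjusted p 1.61e-06). None of the 9 listed genes passed by genotype (0 in either cell type), and 6 of the 9 had a higher mean in knockout endothelium, with a median of 0.22. The list includes Mirt1, whose status as a host gene was not checked. Mir17hg had −0.23 in endothelium and 0.21 in podocytes. Among the 8 processing genes, the Argonautes Ago1 to Ago4, Xpo5 and the Tnrc6 genes, 0 were called by cell type and 0 by genotype, and Ago2 had 0.21 and 0.18 log2 units. The processing genes Drosha, Dgcr8, Dicer1, Tarbp2 and Prkra were not analysed here.

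Summed levels of marker and stress genes were compared between genotypes. In the dissociation, podocyte and tubule lists 0 genes passed by genotype with edgeR in either cell type, and of the endothelial markers only Emcn did. The dissociation response, 22 immediate-early and heat shock genes that tissue handling switches on (Dusp1 is also in the phosphatase list), summed to 45927 and 53536 CPM in wild-type and 28809 and 37118 CPM in knockout endothelium, where 22 of 22 members had a negative difference and the median was −0.74, or 21 of 22 and −0.40 when scaled by library totals. In podocytes the sums were 50094 and 41648 against 40821 and 35119 CPM, without overlap, where 14 of 22 were negative and the median was −0.09, or 11 of 22 and 0.03 when scaled by library totals. The mean log2 level of these genes did overlap in podocytes, at 9.75 and 9.49 in wild type against 9.79 and 9.20 in knockout. Like 5 of the 6 members, 10 of these 22 genes were called higher in podocytes, Jund (−3.08, or −1.96 without replicate 2 of knockout podocytes) and Fosb (−2.31) by most, and 1, Klf4, in endothelium. The 9 podocyte markers summed to 15559 and 9765 CPM in wild-type and 7452 and 9327 CPM in knockout podocytes, and 9 of 9 had a negative difference (median −0.55). Podocyte marker sums in endothelium overlapped between genotypes, at 1982 and 1248 against 1370 and 1571 CPM. The 6 tubule markers summed to 6570 and 14414 CPM in wild-type against 2992 and 6479 CPM in knockout endothelium, and to 5166 and 11532 against 5208 and 7751 CPM in podocytes. Their directions were mixed, with 3 of 6 negative in endothelium (median −0.28) and 2 of 6 in podocytes (median 0.37). Endothelial marker sums overlapped in endothelium (12632 and 10828 against 11796 and 9773 CPM). In podocytes they were 905 and 654 against 596 and 518 CPM, a sum that includes Emcn.

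The other lists were small. Immune markers summed to between 26.7 and 58.1 CPM in endothelium and between 85.2 and 122 CPM in podocytes, and mural and mesangial markers to between 300 and 652 CPM and between 465 and 1212 CPM, with the genotypes overlapping in both cell types. Erythroid genes were not analysed here. The part of these lists in the members' levels was not tested. In bulk samples, fewer cells of a type and less RNA per cell cannot be told apart. Without replicate 3 of wild-type endothelium, the library with the highest mitochondrial share, the endothelial differences were −0.71 for Colgalt2, −1.44 for Dusp10, −0.78 for Acsl4, −1.07 for Wee1, −0.62 for Mir22hg and −1.81 for G530011O06Rik.

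**Figure D4:**
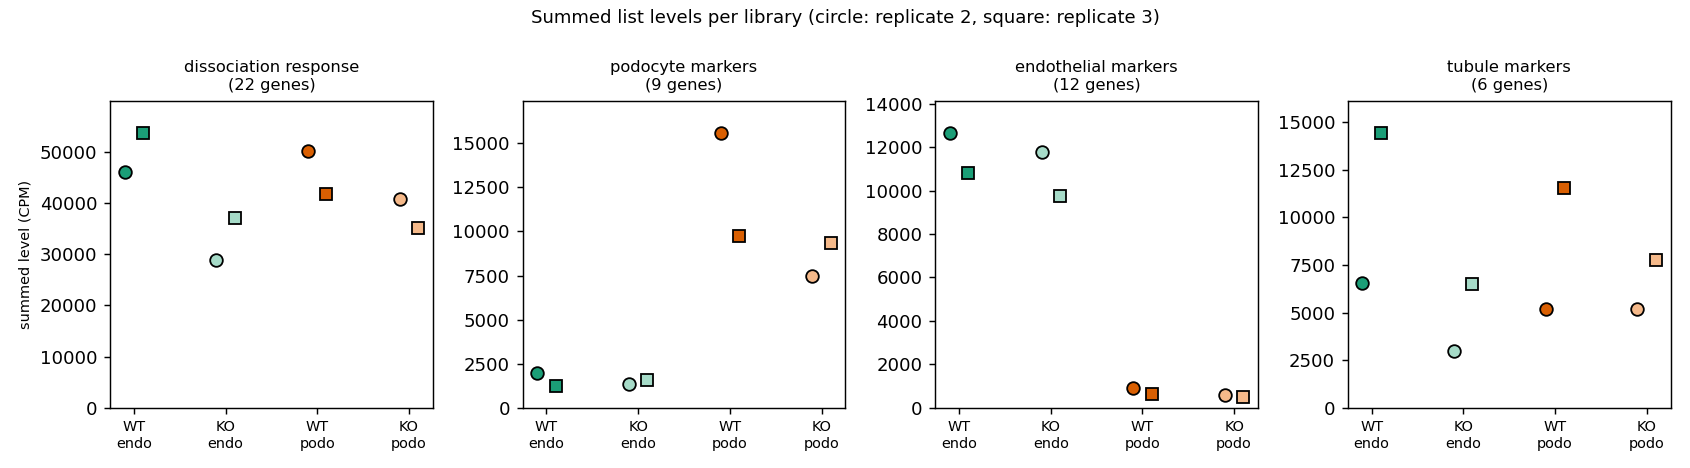
Summed level (CPM, linear axis from 0) of 4 gene lists in each library, with circles for replicate 2 and squares for replicate 3. The dissociation response is lower in both knockout endothelium libraries than in both wild-type ones, and the podocyte markers are lower in both knockout podocyte libraries.

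The patterns of the 6 genes over the 8 libraries were alike once the mean of each cell type was subtracted, with Pearson correlations from 0.776 (Colgalt2 and Wee1) to 0.936 (Colgalt2 and Acsl4). These genes share libraries, and their common genotype difference, which chose them, enters each correlation. Matches were sought among 10080 genes with a mean of at least 5 CPM, a count that includes the members, which were not taken as matches. Mir22hg was matched most closely by Ldah (0.994), a hydrolase of lipid droplets, and Lpin2 (0.992), a phosphatidate phosphatase. Dusp10 was matched by Zfp788 (0.991) and Gps1 (0.985), Colgalt2 by 4921531C22Rik (0.983) and Dnajb6 (0.981), and Acsl4 by Tsc2, Pcnp and Vamp2 (0.980 each). G530011O06Rik was matched by Mppe1 (0.985) and Gm15706 (0.971), and Wee1 less closely, by Ube2v2 (0.960) and Cstpp1 (0.955). Most of these genes had smaller genotype differences than the member they resembled, such as Ldah at −0.38 in endothelium and −0.51 in podocytes and Gps1 at −0.26 and −0.17. The members were chosen by that difference and its p-value, so smaller values in other genes are no evidence about them. Gm15706 had −0.96 and −0.97.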

How the data were processed

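Counts were deposited by the authors in 1 table, unnormalised, with a line for each Entrez gene and a column for each library per the file headers. The build mm10 and the tool DESeq2 are named in the submitters' processing notes, and the aligner, the counter and the use of strand are not given in the sources used here. Of 22533 gene lines, 5207 (23.11%) held fewer than 8 counts and were not used. On these lines the gene name holds commas and counts are missing from the end of the line. The 3 deposited columns in which this left empty cells were therefore entered as other data in the check of units, although every complete line held whole counts.

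Groups and replicate numbers came from the labels' titles. Counts were analysed with edgeR 4.0.16 in R 4.3.3: filterByExpr (16477 genes kept), TMM scaling, 1 mean per group fitted to all 8 libraries, quasi-likelihood F tests, and Benjamini-Hochberg adjustment over all genes with a threshold of 0.05. The standard error is the log2 fold change over the square root of F, and log2 CPM used a prior count of 2. CPM per kilobase used the union of GENCODE M21 exons, which can be longer than the transcript in use. Alternatives were DESeq2 size factors, library totals only, mitochondrial genes left out, the DESeq2 1.42.0 Wald test, the replicate number as a block, no filter on low counts, only genes averaging 5 CPM or more, an additive model, 1 cell type alone, an adjusted p under 0.10 and each library left out. A block with podocyte numbers swapped was chosen after seeing the data. In counts simulated for the cell type contrast (16477 genes, 100 changed 2-fold and 100 changed 4-fold), the test recovered 48% and 98%, with 20 false calls among 166.

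The genes examined and all lists were chosen with earlier results of these data known. Named genes were Emcn, the 6 genes, those around them in rank, close relatives, up to 4 genes per list with the largest cell type difference past the threshold, and the 3 closest in pattern. Fkbp10, Btrc, Gpx4, Mir17hg, Ago2, Xist and the genes overlapping a member fall outside this rule and were named after their values were seen. Coverage on complete lines was under 80% for the collagen (57.9%), ferroptosis (61.9%), microRNA processing (61.5%), podocyte (60.0%), tubule (50.0%), mural (60.0%) and immune (54.5%) lists and for the sex-linked list (20.0%). The erythroid list had 0 genes.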

Additional observations from a re-analysis of the deposited data

How the results depend on the processing

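The genotype difference of the 6 genes was negative under every alternative run, in each cell type and over both. This sign comes from the contrast that chose the genes on the same libraries, and is no evidence about them. Scaling by library totals only, which moved the median of all genes from 0.01 to 0.23 over both cell types, from 0.01 to 0.33 in endothelium and from 0.02 to 0.13 in podocytes, gave the smallest values over both cell types, from -0.51 for Mir22hg and Acsl4 to -1.62 for G530011O06Rik. In endothelium it moved Colgalt2 to -0.32, Acsl4 to -0.28 and Mir22hg to -0.33. With the replicate block the 6 genes ranked between 5 and 26 among lower genes, and 2 genes passed over both cell types.

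The count of genes passing over both cell types was 13 with DESeq2. In endothelium it was 10 with DESeq2 and 0 with library totals only, with a mean of at least 5 CPM and with the swapped block. In podocytes it was 12 with DESeq2 and 0 with library totals only, with a mean of at least 5 CPM, in the podocyte libraries alone and with the swapped block. With 1 library left out it ran from 0 to 1 in endothelium and from 0 to 1 in podocytes, where the lone library of an arm is assumed to vary like the others. Whether same-numbered libraries pair was checked by the correlation of their deviations from group means, which ran from -0.129 to 0.188, so they were not treated as pairs, and whether they share an animal or a day is not given in the sources used here. In every group replicate 3 had the higher mitochondrial share and the lower level of Colgalt2 and Dusp10, and the source of this was not tested. The block gave 3435 genes by cell type and 0 in the interaction, and the swapped block 2912 and 0.

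The cell type differences of Acsl3 (-0.04) and Acsl5 (-0.01) changed sign. Acsl3 was 0.11 with library totals only, 0.0257 without mitochondrial genes and 0.0602 with a mean of at least 5 CPM, and -0.33 to 0.16 with 1 library left out. Acsl5 was 0.0246 with DESeq2 size factors, 0.15 with library totals only, 0.0572 without mitochondrial genes, 0.0246 with the DESeq2 test and 0.0908 with a mean of at least 5 CPM, and -0.0806 to 0.0509 with 1 library left out. With 1 library left out, Dusp4 ran from -0.24 to 0.56 and Dusp9 from -0.87 to 0.94, and the interaction terms of Mir22hg from -0.0618 to 0.315 and of G530011O06Rik from -0.24 to 0.69. Dusp10 in endothelium rests on 29 and 48 knockout counts, which limits its precision.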
